A study of Mus musculus and Homo sapiens with 47 samples.

Results

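The genes described here encode 10 subunits of Polycomb repressive complex 1 (PRC1): the PCGF proteins BMI1 (also called PCGF4), PCGF2, PCGF3, PCGF5 and PCGF6, the variant-complex subunits RYBP and KDM2B, and the chromodomain proteins CBX2, CBX7 and CBX8. They were taken by name from a table of 25369 genes counted in SUDHL10, a human lymphoma cell line, and all 10 passed the filter on low counts that left 15278 genes for testing. Cells received UNC1999, which blocks the catalytic subunits of Polycomb repressive complex 2 (PRC2), or MAK683, which binds the PRC2 subunit EED, each at 5 µM. UNC1999 libraries were made at days 1, 3, 5 and 6 (2 per day), MAK683 libraries at days 1, 3 and 5 (1 per day), and untreated libraries at day 5 (2). A single line was used and the untreated cells were collected at day 5 alone, so at days 1, 3 and 6 treatment and time in culture cannot be told apart. Each MAK683 day is 1 library, whose spread was borrowed from the groups of 2 and is assumed to equal theirs.

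PRC1 places ubiquitin on histone H2A through RING1 or RNF2, and every PRC1 complex contains 1 PCGF protein. In canonical PRC1, PCGF2 or BMI1 is joined by a CBX protein, whose chromodomain binds the trimethylated lysine 27 of histone H3 (H3K27me3) made by PRC2. In variant PRC1, RYBP or its relative YAF2 takes the place of the CBX protein, and the complex reaches chromatin by other means, such as the binding of unmethylated CpG DNA by KDM2B.

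The libraries held 26234896 to 39315662 counts. All 8 B cell markers were detected (CD79A at 476 to 937 CPM, the read counts relative to library size after TMM scaling), whereas the summed levels of 5 T cell, 6 myeloid and 6 epithelial and stromal markers reached at most 11.3, 9.63 and 5.13 CPM. Most of the T cell sum was CD3E, at up to 11 CPM. The library labelled MAK683 day 5 stood apart from the other treated libraries: its log2 CPM correlated at 0.923 to 0.932 with the UNC1999 libraries, at 0.927 to 0.939 with the other MAK683 libraries and at 0.960 to 0.963 with the untreated libraries. Every value given for MAK683 day 5 rests on that library. In bulk RNA, fewer cells of a type and less RNA per cell cannot be told apart.

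Both compounds were followed by changes in most of the subunit genes, in both directions. PCGF2 rose at every time. At every time but MAK683 day 5, CBX7 and PCGF3 fell, CBX7 most at day 1, and CBX2 and PCGF6 rose. At MAK683 day 5, CBX7 was called higher and CBX2 and PCGF6 lower, and PCGF3 was not called. CBX8 passed the test in none of the 7 comparisons with untreated cells, in edgeR or in DESeq2, and had no unadjusted p under 0.05. Against untreated cells, edgeR's quasi-likelihood test, with Benjamini-Hochberg adjustment over all tested genes and a threshold of 0.05, called 7 of the 10 genes at UNC1999 day 1 (4 higher and 3 lower), where it called 54.7% of all tested genes (28.2% higher and 26.5% lower). At day 3 it called 9 (6 higher and 3 lower), against 57.1% of all tested genes (30.1% higher and 26.9% lower). At day 5 it called 7 (5 higher and 2 lower), against 58.7% of all tested genes (31.3% higher and 27.4% lower). At day 6 it called 6 (4 higher and 2 lower), against 58.2% of all tested genes (30.9% higher and 27.3% lower). For MAK683 at day 1 it called 7 (4 higher and 3 lower), against 48.6% of all tested genes (26.2% higher and 22.4% lower). For MAK683 at day 3 it called 7 (5 higher and 2 lower), against 48.4% of all tested genes (26.2% higher and 22.2% lower). For MAK683 at day 5 it called 8 (6 higher and 2 lower), against 29.6% of all tested genes (15.5% higher and 14.1% lower). These shares of all genes are large, so a call alone does not set a subunit gene apart. Where libraries are said below to lie above or below others, the share of all tested genes doing so was not counted. The 7 comparisons share the untreated libraries. Without untreated column A, or without UNC1999 day 5 replicate 2, 4 of the 10 genes were called at UNC1999 day 5.

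**Figure D1:**
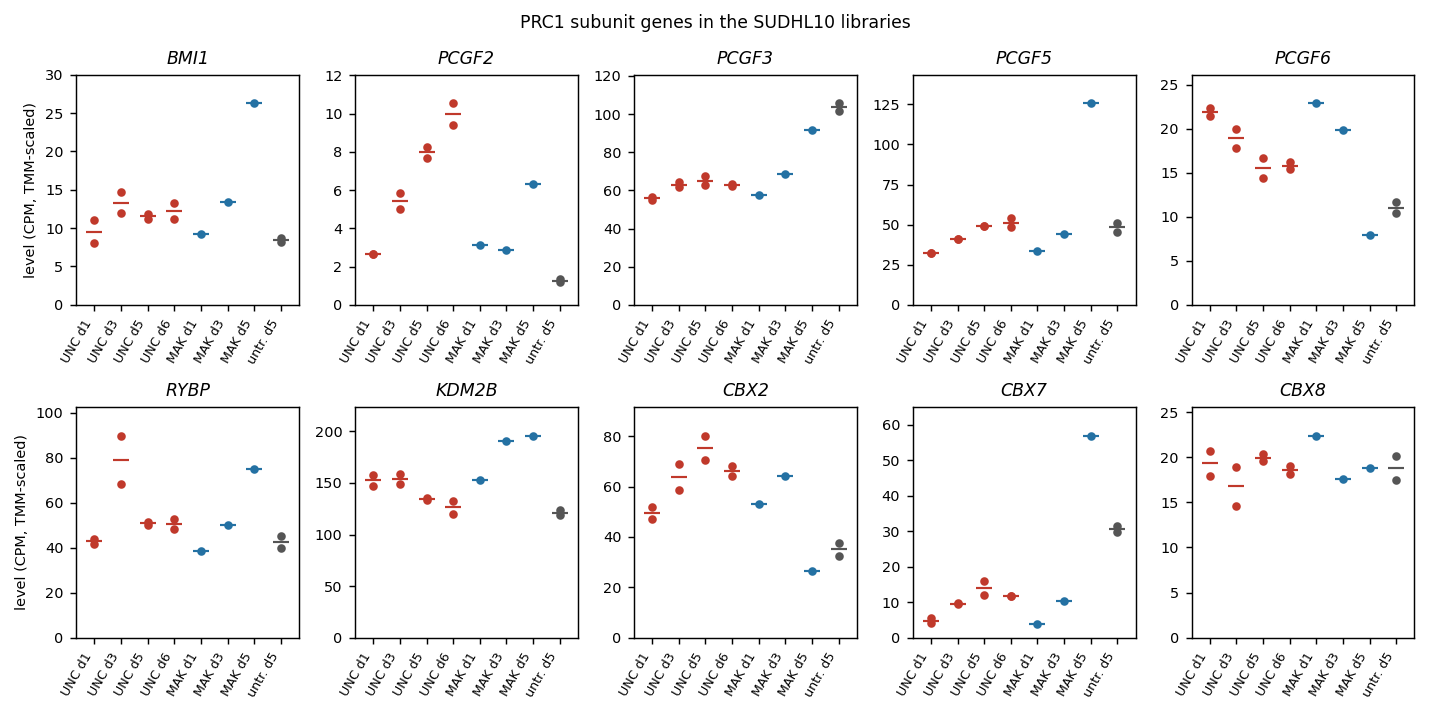
Level of each subunit gene in every library, in TMM-scaled CPM (vertical axes start at 0 and differ between genes). Points are libraries and bars are group means, with UNC1999 in red, MAK683 in blue and untreated cells in grey; PCGF2 is lowest and CBX7 second highest in the untreated cells.

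PCGF2 (MEL18), a PCGF protein of canonical PRC1, rose most. It was at 2.65 and 2.65 CPM at UNC1999 day 1, 5.83 and 5.03 at day 3, 7.69 and 8.28 at day 5, and 9.41 and 10.5 at day 6, and at 3.12, 2.86 and 6.29 CPM at MAK683 days 1, 3 and 5, against 1.18 and 1.33 CPM in untreated cells. Every treated library lay above both untreated ones. The UNC1999 libraries of different days did not overlap, but day 5 against day 3 and day 6 against day 5 were not called (adjusted p 0.0625 and 0.671). The log2 fold changes against untreated cells were 1.08 ± 0.26 (SE), 2.11 ± 0.25, 2.67 ± 0.25 and 2.99 ± 0.25 at UNC1999 days 1, 3, 5 and 6 (adjusted p from 0.00122 to 3.75e-10), the last being 7.93-fold. Under MAK683 they were 1.31 ± 0.31, 1.19 ± 0.31 and 2.33 ± 0.29 at days 1, 3 and 5 (adjusted p 0.000977, 0.00234 and 1.09e-06), and the day 3 call was lost when only the 2 groups compared were fitted (adjusted p 0.0875). PCGF2 had the lowest counts of the 10 genes, at 42 and 45 in the untreated libraries, which sets the width of its intervals.

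BMI1, the other PCGF protein of canonical PRC1 and an oncogene in lymphoid cells, changed less than PCGF2 and was not called at day 1. Its level was 8.02 and 11.1 CPM at UNC1999 day 1, 11.9 and 14.7 at day 3, 11.8 and 11.2 at day 5, and 11.2 and 13.3 at day 6, and 9.22, 13.4 and 26.3 CPM at MAK683 days 1, 3 and 5, against 8.74 and 8.19 CPM in untreated cells. From day 3 on, all treated libraries lay above the untreated ones, and MAK683 day 5 lay above all others. BMI1 was called higher at UNC1999 day 3 (log2 fold change 0.66 ± 0.17, adjusted p 0.00236), at day 5 (0.44 ± 0.17, adjusted p 0.0316) and at day 6 (0.53 ± 0.18, adjusted p 0.0122). Under MAK683 it was called higher at day 3 (0.66 ± 0.21, adjusted p 0.011) and day 5 (1.63 ± 0.20, 3.10-fold, adjusted p 8.47e-07). The day 5 UNC1999 call was lost without either untreated column or either UNC1999 day 5 library (adjusted p 0.0673 to 0.128) and in DESeq2 (adjusted p 0.0724), and the day 6 call without untreated column B or UNC1999 day 6 replicate 2 (adjusted p 0.0663 and 0.123). The table also lists a readthrough of BMI1 with its neighbour COMMD3, at 0 counts in all 13 libraries; how reads shared by these genes were assigned is not given in the sources used here, so the BMI1 values are uncertain to that extent. COMMD3 itself was at 18.4 CPM at MAK683 day 5, against 11.2 and 9.99 CPM in untreated cells.

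CBX7, a chromodomain subunit of canonical PRC1 that binds H3K27me3 and is known to hold down the CDKN2A locus, had the widest range of the 10 genes. It was at 5.40 and 4.23 CPM at UNC1999 day 1, 9.67 and 9.57 at day 3, 12.1 and 16.01 at day 5, and 11.8 and 11.9 at day 6. MAK683 gave 3.90, 10.3 and 56.8 CPM at days 1, 3 and 5, and untreated cells were at 31.4 and 29.8 CPM. All 8 UNC1999 libraries and the first 2 MAK683 days lay below the untreated cells, and MAK683 day 5 lay above them.

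Against untreated cells, CBX7 fell by 2.66 ± 0.16 on the log2 scale at UNC1999 day 1 (6.34-fold lower, adjusted p 1.36e-12), by 1.67 ± 0.15 at day 3, by 1.12 ± 0.15 at day 5 and by 1.37 ± 0.15 at day 6 (adjusted p 4.85e-07 or smaller). With MAK683 it fell by 2.97 ± 0.22 at day 1 (7.85-fold lower, adjusted p 7.55e-11) and by 1.58 ± 0.20 at day 3 (adjusted p 2.89e-07), and rose by 0.89 ± 0.17 at day 5 (1.86-fold, adjusted p 0.000233). From low to high, the groups ran MAK683 day 1, UNC1999 day 1, UNC1999 day 3, MAK683 day 3, UNC1999 day 6, UNC1999 day 5, untreated, MAK683 day 5. Of these neighbours, the compounds at day 1, the compounds at day 3, and UNC1999 days 6 and 5 were not called different, and MAK683 day 3 was not compared with UNC1999 day 6.

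CBX2, the canonical subunit that compacts chromatin through its charged central region, was called in the direction opposite to CBX7 against untreated cells at all 7 times. Its levels were 52.1 and 47.2 CPM at UNC1999 day 1, 69.1 and 58.5 at day 3, 80.1 and 70.7 at day 5, and 64.0 and 68.1 at day 6. It was at 53.2, 64.3 and 26.5 CPM at MAK683 days 1, 3 and 5, against 37.8 and 32.3 CPM in untreated cells. MAK683 day 5 was the only treated library below the untreated ones. CBX2 rose by 0.50 ± 0.11, 0.86 ± 0.11, 1.10 ± 0.11 and 0.91 ± 0.11 on the log2 scale at UNC1999 days 1, 3, 5 and 6 (adjusted p from 0.000293 to 2.91e-09) and by 0.60 ± 0.13 and 0.88 ± 0.13 at MAK683 days 1 and 3 (adjusted p 0.000359 and 2.70e-06). At MAK683 day 5 it fell by 0.40 ± 0.14 (adjusted p 0.028), a call that was lost without untreated column A (adjusted p 0.0837).

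CBX8, another chromodomain subunit, was at 17.9 and 20.7 CPM at UNC1999 day 1, 19.0 and 14.6 at day 3, 20.3 and 19.6 at day 5, and 18.1 and 19.0 at day 6. It was at 22.3, 17.6 and 18.8 CPM at MAK683 days 1, 3 and 5, against 20.2 and 17.5 CPM in untreated cells. The groups overlapped at all but 1 of these times: MAK683 day 1 lay above both untreated libraries. Its log2 fold changes against untreated cells ran from -0.17 (95% interval -0.46 to 0.12, UNC1999 day 3) to 0.25 (-0.11 to 0.60, MAK683 day 1). Changes within these intervals are not excluded.

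**Figure D2:**
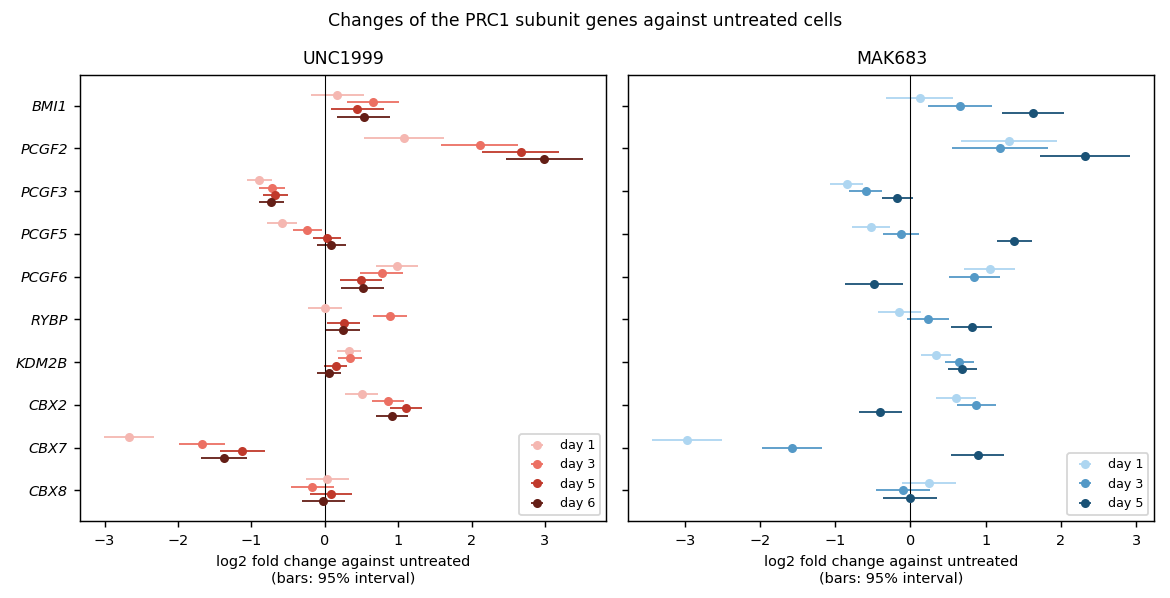
Log2 fold change of each subunit gene against untreated cells (horizontal axis) under UNC1999 (left) and MAK683 (right), with points for days from light (day 1) to dark (latest day) and bars for 95% intervals from the edgeR fit. CBX7 shows the widest spread, and MAK683 day 5 lies on the opposite side of 0 from MAK683 days 1 and 3 for CBX7, CBX2, PCGF6 and PCGF5.

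Among the PCGF proteins of variant complexes, PCGF3 and PCGF5 share partners such as AUTS2 and casein kinase 2, and were both lower at day 1. PCGF3 was at 56.6 and 55.2 CPM at UNC1999 day 1, 61.9 and 64.3 at day 3, 67.4 and 62.6 at day 5, and 62.1 and 63.1 at day 6. MAK683 gave 57.7, 68.5 and 91.9 CPM at days 1, 3 and 5, against 106 and 102 CPM in untreated cells. All 11 treated libraries lay below both untreated ones. PCGF3 fell by 0.89 ± 0.08, 0.72 ± 0.08, 0.67 ± 0.08 and 0.73 ± 0.08 on the log2 scale at UNC1999 days 1, 3, 5 and 6 (adjusted p 1.81e-07 or smaller), and by 0.85 ± 0.11 and 0.60 ± 0.10 at MAK683 days 1 and 3 (adjusted p 3.44e-07 and 3.48e-05). At MAK683 day 5 its log2 fold change was -0.17 (95% interval -0.38 to 0.04, adjusted p 0.22).

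PCGF5 was lower at the first day and came back to or above the untreated level. It was at 32.5 and 32.03 CPM at UNC1999 day 1, 40.9 and 41.0 at day 3, 49.0 and 49.5 at day 5, and 48.4 and 54.1 at day 6. It was at 33.5, 44.1 and 126 CPM at MAK683 days 1, 3 and 5, against 45.5 and 51.0 CPM in untreated cells. The 6 libraries of days 1 and 3 lay below the untreated range, the UNC1999 libraries of days 5 and 6 within or just above it, and MAK683 day 5 far above it. PCGF5 fell by 0.58 ± 0.10 on the log2 scale at UNC1999 day 1 (adjusted p 1.54e-05) and by 0.53 ± 0.12 at MAK683 day 1 (adjusted p 0.000749), and rose by 1.38 ± 0.11 at MAK683 day 5 (2.61-fold, adjusted p 8.62e-10). A fall of 0.24 ± 0.10 at UNC1999 day 3 (adjusted p 0.037) was lost without untreated column B or either library of that day (adjusted p 0.0785 to 0.257), with no low-count filter (adjusted p 0.0594) and with only the groups compared (adjusted p 0.0766).

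PCGF6, which defines the variant complex with L3MBTL2, MGA and E2F6, was higher at most times. Its levels were 21.4 and 22.3 CPM at UNC1999 day 1, 19.97 and 17.8 at day 3, 14.4 and 16.7 at day 5, and 15.4 and 16.2 at day 6. It stood at 22.9, 19.9 and 7.88 CPM at MAK683 days 1, 3 and 5, against 10.4 and 11.7 CPM in untreated cells. MAK683 day 5 was the lowest of the 13 libraries and the other 10 treated libraries lay above the untreated ones. PCGF6 rose by 0.99 ± 0.14, 0.78 ± 0.14, 0.49 ± 0.14 and 0.52 ± 0.14 on the log2 scale at UNC1999 days 1, 3, 5 and 6 (adjusted p 1.60e-06, 4.24e-05, 0.00406 and 0.00301) and by 1.05 ± 0.17 and 0.85 ± 0.17 at MAK683 days 1 and 3 (adjusted p 8.90e-06 and 0.000139). The fall of 0.48 ± 0.18 at MAK683 day 5 was at the threshold (adjusted p 0.04998) and was lost without untreated column B, UNC1999 day 1 replicate 1, or any of the UNC1999 libraries of days 5 and 6 (adjusted p 0.0555 to 0.165). It was also lost with library size scaling and with only the groups compared (adjusted p 0.0539 and 0.117). The UNC1999 day 5 rise was lost without untreated column A or UNC1999 day 5 replicate 2 (adjusted p 0.0588 and 0.0713).

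RYBP, which stimulates the ubiquitin ligase of variant complexes, was highest at day 3 under UNC1999. At days 5 and 6 it was lower than at day 3 but still above both untreated libraries. It was at 41.8 and 43.7 CPM at UNC1999 day 1, 68.1 and 89.6 at day 3, 51.5 and 50.2 at day 5, and 52.8 and 48.2 at day 6. It was at 38.3, 50.0 and 74.8 CPM at MAK683 days 1, 3 and 5, against 39.8 and 45.3 CPM in untreated cells. The UNC1999 day 3 and MAK683 day 5 libraries lay well above the rest, although the day 3 pair also differed most among the UNC1999 pairs of this gene. RYBP rose by 0.89 ± 0.11 on the log2 scale at UNC1999 day 3 (1.86-fold, adjusted p 2.09e-07) and by 0.81 ± 0.13 at MAK683 day 5 (1.76-fold, adjusted p 3.71e-05). A rise of 0.26 ± 0.11 at UNC1999 day 5 was at the threshold (adjusted p 0.04985) and was lost without untreated column A, MAK683 day 5, or any 1 of the UNC1999 libraries of days 1, 5 and 6 (adjusted p 0.0509 to 0.39). DESeq2's size factors, library size scaling and DESeq2's own test lost it too (adjusted p 0.0515 to 0.0963). At UNC1999 day 6, the log2 fold change of 0.25 ± 0.11 missed the threshold (adjusted p 0.0599) and passed it without untreated column B or either UNC1999 day 3 library (adjusted p 0.0215 to 0.0392).

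KDM2B, a CpG-binding histone demethylase that recruits the PCGF1 complex, changed by less than 2-fold throughout. It was at 158 and 147 CPM at UNC1999 day 1, 149 and 159 at day 3, 136 and 133 at day 5, and 133 and 120 at day 6. It was at 153, 190 and 195 CPM at MAK683 days 1, 3 and 5, against 118.999 and 124 CPM in untreated cells. All treated libraries but 1 of UNC1999 day 6 lay above both untreated ones. KDM2B rose by 0.33 ± 0.08 and 0.35 ± 0.08 on the log2 scale at UNC1999 days 1 and 3 (adjusted p 0.000887 and 0.000567), and by 0.34 ± 0.10, 0.65 ± 0.09 and 0.69 ± 0.09 at MAK683 days 1, 3 and 5 (adjusted p 0.00464, 2.81e-06 and 3.85e-06). At UNC1999 days 5 and 6 it was not called (log2 fold changes 0.15 and 0.06, adjusted p 0.11 and 0.514). The MAK683 day 1 rise was lost without untreated column A or UNC1999 day 1 replicate 2 (adjusted p 0.0831 and 0.066), and with no low-count filter (adjusted p 0.0726).

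Between the UNC1999 days, CBX7, PCGF2, PCGF5 and CBX2 were each called higher at days 3, 5 and 6 than at day 1. These contrasts leave out the untreated libraries, which still enter the shared fit. Of the 10 genes, 6 were called at day 3 against day 1, all higher, where 35.4% of all tested genes were called (17.2% higher and 18.2% lower). They were PCGF2 (log2 fold change 1.03 ± 0.24), CBX7 (0.99 ± 0.17), RYBP (0.88 ± 0.11), BMI1 (0.48 ± 0.17), CBX2 (0.36 ± 0.11) and PCGF5 (0.34 ± 0.10). The BMI1 call was lost without UNC1999 day 1 replicate 1 or day 3 replicate 2 (adjusted p 0.359 and 0.261), and that of CBX2 without day 3 replicate 1 (adjusted p 0.116). At day 5 against day 1, 6 were called (5 higher and 1 lower), against 41.6% of all tested genes (19.6% higher and 22% lower). PCGF2 (1.59 ± 0.24), CBX7 (1.54 ± 0.16), PCGF5 (0.61 ± 0.10), CBX2 (0.60 ± 0.10) and PCGF3 (0.22 ± 0.08) were higher and PCGF6 was lower (-0.50 ± 0.14). The PCGF3 call was lost without any 1 of the UNC1999 libraries of days 1, 5 and 6 (adjusted p 0.0528 to 0.262), and that of PCGF6 without UNC1999 day 1 replicate 2 or day 5 replicate 1 (adjusted p 0.0886 and 0.0866). At day 6 against day 1, 6 were called (4 higher and 2 lower), against 47.5% of all tested genes (22.1% higher and 25.5% lower). At day 6 against day 1, PCGF2 rose by 1.91 ± 0.24 on the log2 scale, CBX7 by 1.29 ± 0.17, PCGF5 by 0.67 ± 0.10 and CBX2 by 0.41 ± 0.11 (adjusted p 3.94e-07, 7.41e-07, 3.97e-06 and 0.00234). PCGF6 fell by 0.47 ± 0.14 and KDM2B by 0.27 ± 0.08 (adjusted p 0.00676 and 0.0067). The fall of KDM2B was lost without either UNC1999 day 1 library or day 6 replicate 2 (adjusted p 0.0716 to 0.131), and also with DESeq2's size factors, with no low-count filter and in DESeq2's test (adjusted p 0.0524 to 0.0804). That of PCGF6 was lost without UNC1999 day 1 replicate 2 or day 6 replicate 1 (adjusted p 0.106 and 0.0624).

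Some calls between these days were gained when a library was left out. Without untreated column A, RYBP was called higher at days 5 and 6 than at day 1 (adjusted p 0.0421 and 0.0368), and PCGF3 at days 3 and 6 than at day 1 (adjusted p 0.0385 and 0.0376). Both RYBP calls also appeared without either UNC1999 day 3 library (adjusted p 0.028 to 0.0318), as did a lower KDM2B at day 5 than at day 1 (adjusted p 0.0403 and 0.0417). Without UNC1999 day 1 replicate 2, BMI1 was called higher at days 5 and 6 than at day 1 (adjusted p 0.0336 and 0.0129).

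RYBP was higher at day 3 than at day 1 (log2 fold change 0.88 ± 0.11, adjusted p 1.12e-06) and then lower at day 5 than at day 3 (-0.63 ± 0.11, adjusted p 8.96e-05). Between days 5 and 3 under UNC1999, 3 genes were called (28.7% of all tested genes), the others being PCGF5 and CBX7, both higher. PCGF2 was not called at day 5 against day 3 (0.56 ± 0.22, adjusted p 0.0625). Between days 6 and 5, none of the 10 was called in edgeR and none had an unadjusted p under 0.05, where 0.785% of all tested genes were called.

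Under MAK683, with 1 library per day, most of the larger shifts lay between days 3 and 5. At day 3 against day 1, 3 genes were called (19.7% of all tested genes), with higher levels of CBX7 (log2 fold change 1.40 ± 0.24), PCGF5 (0.40 ± 0.14) and KDM2B (0.31 ± 0.11). Day 5 against day 3 gave 8 called genes (48.6% of all tested genes), with CBX7 higher by 2.47 ± 0.22, PCGF5 by 1.51 ± 0.13, PCGF2 by 1.14 ± 0.33, BMI1 by 0.98 ± 0.24, RYBP by 0.58 ± 0.16 and PCGF3 by 0.42 ± 0.12, and with PCGF6 and CBX2 lower (-1.33 ± 0.21 and -1.28 ± 0.15). Day 5 against day 1 gave 9 (52.4%), and CBX7 was 14.6-fold higher at day 5 (log2 fold change 3.87 ± 0.24, adjusted p 2.80e-12). PCGF5 (1.91 ± 0.14), BMI1 (1.51 ± 0.25), PCGF2 (1.01 ± 0.33), RYBP (0.96 ± 0.16), PCGF3 (0.67 ± 0.12) and KDM2B (0.35 ± 0.11) were also higher at day 5 than at day 1, and PCGF6 (-1.54 ± 0.21) and CBX2 (-1.003 ± 0.155) were lower.

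The compounds bind different PRC2 subunits and were used at the same dose, so they were compared at matched days. At day 1, none of the 10 genes differed in edgeR's or DESeq2's test, and none had an unadjusted p under 0.05, where 8.05% of all tested genes were called. The 95% intervals of the UNC1999 over MAK683 log2 fold change at day 1 were widest for PCGF2 (-0.85 to 0.38) and CBX7 (-0.16 to 0.78) and narrowest for KDM2B (-0.20 to 0.19). Differences within these intervals are not excluded.

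At day 3, 3 genes differed (22.6% of all tested genes). PCGF2 was higher under UNC1999 than under MAK683 (log2 fold change 0.92 ± 0.30, adjusted p 0.0265), RYBP was higher (0.66 ± 0.14, adjusted p 0.00119) and KDM2B was lower (-0.30 ± 0.09, adjusted p 0.0218). Without UNC1999 day 3 replicate 1, RYBP alone was called and the adjusted p of PCGF2 and KDM2B was 0.0746 and 0.0667. Without UNC1999 day 1 replicate 2, that of KDM2B was 0.0708. The KDM2B call was also lost with library size scaling, with no low-count filter and with only the groups compared (adjusted p 0.0512, 0.061 and 0.137).

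At day 5, 8 of the 10 genes differed, where 52.1% of all tested genes did. CBX2 was higher under UNC1999 than under MAK683 by 1.51 ± 0.14 on the log2 scale and PCGF6 by 0.98 ± 0.18 (adjusted p 2.39e-09 and 8.08e-05). CBX7 was lower by a log2 fold change of -2.01 ± 0.17 (4.04-fold, adjusted p 4.77e-10), PCGF5 by -1.35 ± 0.11 and BMI1 by -1.19 ± 0.20 (adjusted p 2.60e-10 and 1.77e-05). RYBP, KDM2B and PCGF3 were lower by smaller amounts (-0.56 ± 0.13, -0.54 ± 0.09 and -0.50 ± 0.10). PCGF2 and CBX8 were not called, with 95% intervals of -0.23 to 0.91 and -0.27 to 0.45. A direct test of the day 1 to day 5 change under UNC1999 minus that under MAK683 called the same 8 genes in the same directions (41.8% of all tested genes were called), from 1.60 ± 0.19 for CBX2 to -2.32 ± 0.29 for CBX7. This test reuses the day 5 libraries of both compounds, so it is not independent of the day 5 comparison. Its PCGF3 call (-0.45 ± 0.15, adjusted p 0.0141) was lost without UNC1999 day 5 replicate 2 (adjusted p 0.0568).

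**Figure D3:**
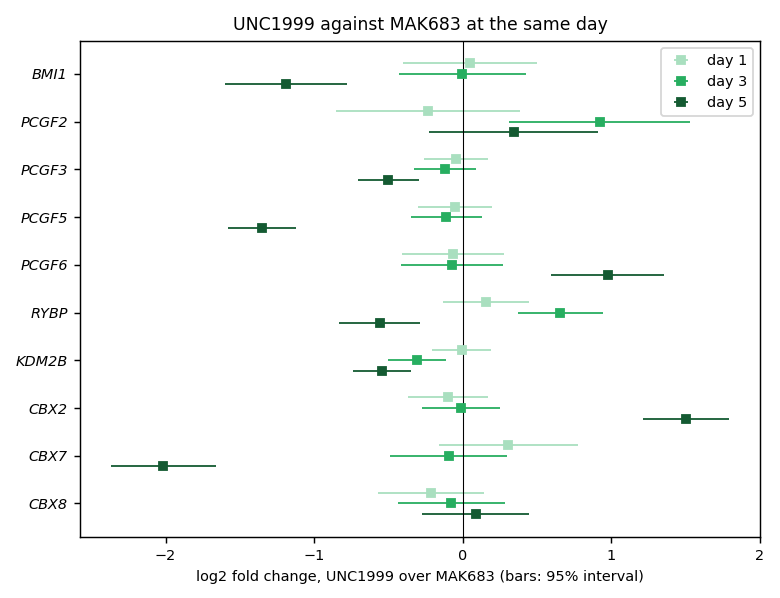
Log2 fold change of UNC1999 over MAK683 at days 1, 3 and 5 for each subunit gene (horizontal axis), with 95% intervals as bars. The intervals of all 10 genes include 0 at day 1, and those of 8 genes exclude it at day 5, with CBX2 and PCGF6 above 0 and the others below.

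The summed level of proliferation genes lay on the same side of the untreated cells as PCGF6 and CBX2, although single proliferation genes moved both ways. The summed level of 22 such genes was 7221 to 7293 CPM at UNC1999 day 1, 8136 to 8137 at day 3, 7342 to 7426 at day 5 and 7033 to 7125 at day 6, and 8548, 8467 and 4848 CPM at MAK683 days 1, 3 and 5, against 6175 to 6568 CPM in untreated cells. The 6 genes of the MCM helicase, which unwinds DNA for replication, were all called higher than in untreated cells at each UNC1999 day and at MAK683 days 1 and 3, and all lower at MAK683 day 5. These 6 are part of the 22 and were grouped with their values in view, so their counts carry no test and do not stand for the whole list. Over the 22 genes, 11 were called higher and 10 lower at UNC1999 day 1, 12 and 6 at day 3, 10 and 9 at day 5 and 10 and 8 at day 6. At MAK683 days 1 and 3, 11 were called higher at each, with 5 and 7 lower, and at MAK683 day 5, 0 were higher and 17 lower. Over all tested genes, 28.2% were called higher and 26.5% lower at UNC1999 day 1, and 15.5% and 14.1% at MAK683 day 5. At the other 5 times, 26.2% to 31.3% were called higher and 22.2% to 27.4% lower. The median log2 fold change of the 22 was 0.02, 0.37, -0.02 and -0.04 at UNC1999 days 1, 3, 5 and 6. Under MAK683 it was 0.30, 0.37 and -0.43 at days 1, 3 and 5. At UNC1999 days 5 and 6 the median thus did not lie above the untreated cells, unlike the sum, which weighs abundant genes most. Genes of mitosis were among those lower at UNC1999 day 1, such as TOP2A (-1.23 ± 0.07) and AURKA (-1.15 ± 0.09). PCGF6 and CBX2, like the summed level, were above the untreated cells everywhere but at MAK683 day 5, and CBX7 was below them everywhere but there. The part of proliferation in the levels of PCGF6, CBX2 and CBX7 was not tested.

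**Figure D4:**
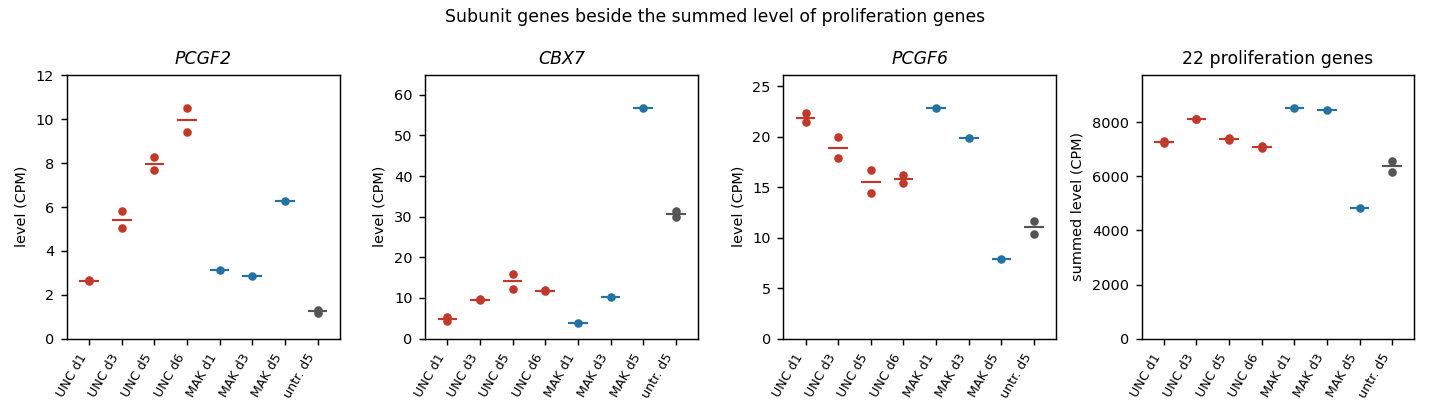
Levels of PCGF2, CBX7 and PCGF6 and the summed level of 22 proliferation genes in each library, in CPM (axes start at 0, points are libraries, bars are group means). MAK683 day 5 has the lowest summed level, 4848, the lowest PCGF6 and the highest CBX7, whereas its PCGF2 lies among the treated libraries.

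Across the 13 libraries, PCGF6 and CBX7 ran opposite to each other (Pearson r of log2 CPM -0.956), as did PCGF3 and PCGF6 (-0.871) and PCGF5 and PCGF6 (-0.845), whereas PCGF3 and CBX7 ran together (0.878). These libraries share groups and scaling, so the values describe the patterns and carry no test. Among 10540 genes ranked by the same measure, the closest to CBX7 was SOCS1, an inhibitor of cytokine signalling (0.985), and the closest to PCGF2 were ILVBL (0.985), BMP1, a procollagen protease (0.980), and PLAGL1, an imprinted zinc-finger gene (0.975). PCGF6 was closest to HMOX2 (0.985) and MCM7 (0.985), the second being one of the proliferation genes above. The closest gene to PCGF3 was AHCYL1 (0.983), to PCGF5 MARK4 (0.971), to KDM2B CIZ1 (0.967) and to CBX2 APEH (0.963). RYBP and BMI1 had no neighbour as close, with PARP16 at 0.943 and IL6ST at 0.927.

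Other PRC1 genes and those of the enzyme complex that removes the H2A mark were counted as background to the 10 subunits; 39 of 40 were tested. Of the 39, 25 were called at UNC1999 day 1 (15 higher, 10 lower), 24 at day 3, 30 at day 5 and 31 at day 6. Those are 64.1%, 61.5%, 76.9% and 79.5%, against 54.7%, 57.1%, 58.7% and 58.2% of all tested genes. At MAK683 days 1, 3 and 5, 27, 25 and 17 were called (69.2%, 64.1% and 43.6%), against 48.6%, 48.4% and 29.6%. The median size of the log2 fold change was 0.523 for the 10 subunit genes, 0.415 for these 39 and 0.642 for all tested genes at UNC1999 day 6. At MAK683 day 5 it was 0.751 for the 10, 0.251 for the 39 and 0.394 for all tested genes. In the same order, it was 0.542, 0.286 and 0.625 at UNC1999 day 1, and 0.746, 0.316 and 0.63 at day 3. UNC1999 day 5 gave 0.468, 0.447 and 0.645. MAK683 day 1 gave 0.564, 0.395 and 0.678, and MAK683 day 3 gave 0.654, 0.36 and 0.655.

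Of the canonical partners, PHC1, a polyhomeotic protein that lets PRC1 polymerise, had the widest swing. It fell by 1.04 ± 0.19 on the log2 scale at UNC1999 day 1 and rose by 2.11 ± 0.17 at day 6, and fell by 1.90 ± 0.27 at MAK683 day 1 and rose by 2.19 ± 0.19 at day 5. Its paralogue PHC3 fell by 1.30 ± 0.10 at UNC1999 day 6 and rose by 0.65 ± 0.12 at MAK683 day 5. CBX6, another chromodomain protein, rose by 1.14 ± 0.10 at UNC1999 day 1. Of the ubiquitin ligases, RING1 rose by 0.76 ± 0.10 at UNC1999 day 1 and RNF2 by 0.82 ± 0.12 at MAK683 day 5.

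The 9 partners usually assigned to the PCGF6 complex were grouped here with their values in view, so their counts carry no test. All 9 were called higher at UNC1999 day 1, and 8 of 9 at MAK683 day 1, as PCGF6 was. Over all tested genes, 28.2% were called higher at UNC1999 day 1 and 26.2% at MAK683 day 1. L3MBTL2, a chromatin-binding protein of the PCGF6 complex, rose by 1.50 ± 0.08 at UNC1999 day 1 and by 1.15 ± 0.10 at MAK683 day 1. It fell by 0.54 ± 0.11 at MAK683 day 5. At MAK683 day 5, none of the 9 was called higher and 3 were called lower, against 15.5% and 14.1% of all tested genes. Of the 7 partners of the PCGF3 and PCGF5 complexes, grouped in the same way, 3 were called lower and 0 higher at UNC1999 day 1. The shares of all tested genes there were 26.5% lower and 28.2% higher. AUTS2, which activates transcription within them, fell by 0.62 ± 0.11 at UNC1999 day 1 and rose by 1.13 ± 0.11 at day 6. BCOR, the scaffold of the PCGF1 complex that KDM2B joins, rose by 0.83 ± 0.09 at UNC1999 day 6 and by 1.50 ± 0.10 at MAK683 day 5.

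Among the deubiquitinase genes, OGT, a sugar transferase bound by BAP1 complexes, fell at all 7 times, by 1.70 ± 0.10 at UNC1999 day 6 and by 0.78 ± 0.12 at MAK683 day 5. HCFC1, another BAP1 partner, rose by 1.19 ± 0.08 at UNC1999 day 1. The catalytic subunit BAP1 itself changed by less than 2-fold, with log2 fold changes between -0.10 and 0.41. It was called higher at UNC1999 day 1 (0.28 ± 0.08, adjusted p 0.00569) and was not called at UNC1999 day 3 (0.15 ± 0.08).

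**Figure D5:**
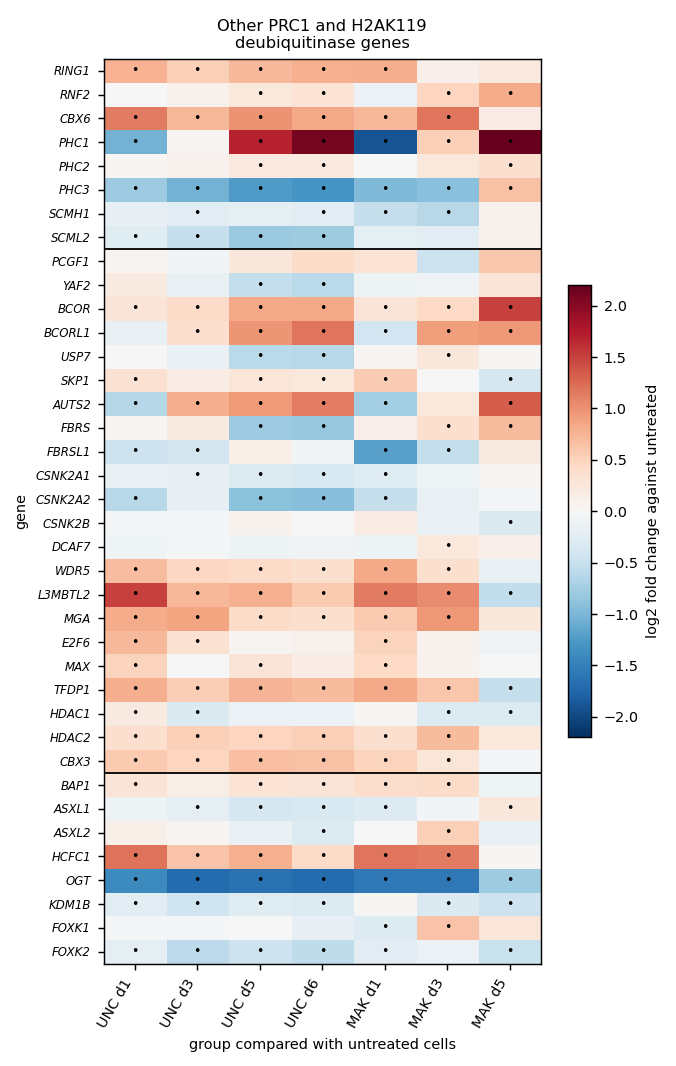
Log2 fold change against untreated cells (colour, red higher and blue lower) of other PRC1 and H2A deubiquitinase genes at each compound and day (columns), with a dot where the gene was called; lines separate canonical, variant and deubiquitinase genes. OGT is blue in every column and PHC1 turns from blue at day 1 to red at the last day under both compounds.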

How the data were processed

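The deposited table holds whole-number read counts per gene for 13 SUDHL10 libraries, not normalized by the authors. The submitters' processing notes name DESeq2, Cell Ranger 3.0.2, STAR 2.5.3a, SICER 0.0.1 and Bowtie2 2.3.4.3, with the build mm9, for the series as a whole. The counting program, its use of strand and the human genome build were not given in these sources. Per the labels these are biological replicates, with no word on separate cultures, so p-values measure only the spread between these samples, which may be technical. The 2 untreated columns share 1 header and are called column A and column B. Replicates differed by more than counting noise (lowest chi-square per degree of freedom 5.78).

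All 13 libraries were fitted together in edgeR 4.0.16 (R 4.3.3), with 1 mean per group, filterByExpr, TMM scaling, the quasi-likelihood F test, and adjustment by Benjamini and Hochberg's method over 15278 genes at 0.05 ("called"). The common biological coefficient of variation was 0.0927, with 5 residual and 18.6 prior degrees of freedom. The SE is the size of the log2 fold change over the square root of F, and intervals are 95% t intervals. CPM uses TMM effective library sizes, and fitted fold changes differ slightly from ratios of CPM. Likeness is Pearson's r of log2 CPM (prior count 2) among genes whose log2 CPM averaged 1 or more, naming the 3 closest genes at most. The procedure was also run on counts simulated with the fitted dispersions for all libraries. That run therefore could not check the spread assumed for the single MAK683 libraries. The 10 genes were reported whatever their values; between days of 1 compound, those called are named. The partner genes named were chosen after their values were seen. The members and lists were chosen with earlier results of these data known, and 5 comparisons between days of 1 compound were added with values in view. Alternatives were size factors of DESeq2, library size alone, no low-count filter, the DESeq2 1.42.0 Wald test, a fit of only the groups compared, a replicate block and leaving out libraries. Gene lengths were not used, so levels are not compared between genes. Mouse and chromatin samples were not analysed here, and 1 of the partner genes is counted but not reported by name or drawn.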

Additional observations from a re-analysis of the deposited data

Results flagged for a closer look

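These results differed between the compounds by a test of the difference itself (edgeR's quasi-likelihood test, adjusted over all tested genes). They use MAK683 groups of 1 library, and all those of day 5 share the MAK683 day 5 library.

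At day 3, the log2 fold change of UNC1999 over MAK683 was 0.92 for PCGF2 (adjusted p 0.0265), 0.66 for RYBP (adjusted p 0.00119) and -0.30 for KDM2B (adjusted p 0.0218). The UNC1999 pair was above the MAK683 library for PCGF2 and RYBP, and below it for KDM2B. Over all tested genes, 22.6% differed at day 3. The calls of PCGF2 and KDM2B were lost without UNC1999 day 3 replicate 1 (log2 fold changes 0.81 and -0.26). KDM2B was also not called without UNC1999 day 1 replicate 2, with library size scaling, with no low-count filter or with only the groups compared.

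At day 5, 8 genes differed, where 52.1% of all tested genes did. CBX2 was at 1.51 and PCGF6 at 0.98, higher under UNC1999. CBX7 was at -2.01, PCGF5 at -1.35, BMI1 at -1.19, RYBP at -0.56, KDM2B at -0.54 and PCGF3 at -0.50, all lower under UNC1999. Both UNC1999 libraries lay on the same side of the MAK683 library for each of the 8.

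The change between days 1 and 5 under UNC1999 minus that under MAK683 was 1.60 for CBX2, 1.04 for PCGF6, -2.32 for CBX7, -1.30 for PCGF5, -1.24 for BMI1, -0.72 for RYBP, -0.53 for KDM2B and -0.45 for PCGF3 on the log2 scale (adjusted p 0.0141 or smaller). Over all tested genes, 41.8% were called in that test, which shares its day 5 libraries with the day 5 comparison. The PCGF3 call was lost without UNC1999 day 5 replicate 2.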

How the results depend on the processing

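Of 2270 member values recomputed under 18 alternatives, 2162 kept their side of the threshold, 64 lost a call and 44 gained one. A change of sign in which either value was called occurred in 0. Changes of sign between values that were both not called were not counted. With only the groups compared, 1922 genes differed between UNC1999 and MAK683 at day 1, against 1230 with all libraries. Leaving out 1 library in turn moved that count to between 761 and 1513, genes called at UNC1999 day 3 against day 1 to between 3292 and 5602 (5401 with all), members called at UNC1999 day 5 against untreated to between 4 and 7, and members called between the compounds at day 3 to between 1 and 3. Without UNC1999 day 1 replicate 1 the first count was 761, and without UNC1999 day 1 replicate 2 the second was 3292. The replicate numbers of the UNC1999 libraries did not pair the samples (correlations of deviations -0.0418 to 0.0235). In the fit of UNC1999 libraries with the replicate number as a block, BMI1 at UNC1999 day 6 against day 1 was called (log2 fold change 0.45, adjusted p 0.0349), and in the same fit without the block it was not. That call was also gained without a block with only the groups compared, with DESeq2's size factors and with no low-count filter (adjusted p 0.046, 0.0441 and 0.0384). The 4 other gains with the block, of PCGF3 and RYBP, came in the same fit without it too. Leaving out MAK683 day 5, chosen after seeing the data, changed the call of 1 of 110 member values, that of RYBP at UNC1999 day 5. The 5 added comparisons between days were not recomputed under these alternatives. PCGF2, with 42 counts in 1 untreated library, is limited most by depth.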
